A study of Mus musculus with 2 samples.

Results

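Asns, the gene of asparagine synthetase, was described together with 9 other genes of the ATF4 response, namely Ddit3, Trib3, Chac1, Atf4, Atf5, Sesn2, Psat1, Phgdh and Slc7a11. The 10 genes were taken by symbol from the platform annotation, out of 18193 genes named by 1 symbol, and 21 probe sets carried their symbols. A probe set is the group of short probes that an Affymetrix expression array summarises into 1 value. Each gene was represented by its brightest probe set, judged on the mean of the 2 arrays. The set was chosen by hand from genes of this response, with the difference of Asns, Ddit3 and other members between these arrays already known. The differences between the pools are therefore a description, and nothing is tested with them.

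Liver RNA of 30-day-old mice was compared between wild type (Yap+/+) and mice with 1 disrupted copy of Yap1 (Yap+/-), the gene of the Hippo pathway co-activator YAP. Both groups were bred on C57BL/6 and were untreated, and neither the sex of the mice nor how the allele was disrupted is stated in the labels. Whole livers of 5 mice per genotype were pooled, and each pool was read on 1 array of a pair. There are therefore no replicates, differences carry no error or p-value, and the spread between mice cannot be seen.

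The ATF4 response is the transcriptional arm of the integrated stress response. Kinases that sense amino acid shortage, unfolded protein in the endoplasmic reticulum, haem shortage or double-stranded RNA phosphorylate the initiation factor eIF2, which lowers general translation and favours translation of the Atf4 messenger RNA. ATF4 then activates genes that make, import and conserve amino acids, and, under lasting stress, factors such as CHOP that limit the response or lead to cell death. Because ATF4 is controlled largely at translation, the level of its messenger RNA is not a readout of its protein.

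ATF4 binds with C/EBP proteins to a composite site, the C/EBP-ATF response element, so the promoters are shown here before the values. Stretches covering the 250 bases upstream of the annotated start of Asns, Chac1 and Slc7a11 hold a match to its core, TGATGNAAN, and the stretch of Ddit3, a member with one of the largest differences, holds none and is shown for contrast. For Trib3 the match lies after the start, and only 30 bases around it are shown. All are from RefSeq, build GRCm38.p6, written from 5′ to 3′ on the strand of the gene, with each match in capitals. They lie at chr6:7693210-7693459 (minus strand) for Asns, chr2:119350992-119351241 (plus) for Chac1, chr3:50443614-50443863 (minus) for Slc7a11, chr10:127290543-127290792 (plus) for Ddit3 and chr2:152344028-152344057 (minus) for Trib3.
Asns: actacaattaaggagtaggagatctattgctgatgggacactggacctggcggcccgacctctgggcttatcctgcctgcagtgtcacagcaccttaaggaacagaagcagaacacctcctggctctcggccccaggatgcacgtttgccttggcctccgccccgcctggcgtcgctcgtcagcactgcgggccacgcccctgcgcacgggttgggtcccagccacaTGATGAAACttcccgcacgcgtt
Chac1: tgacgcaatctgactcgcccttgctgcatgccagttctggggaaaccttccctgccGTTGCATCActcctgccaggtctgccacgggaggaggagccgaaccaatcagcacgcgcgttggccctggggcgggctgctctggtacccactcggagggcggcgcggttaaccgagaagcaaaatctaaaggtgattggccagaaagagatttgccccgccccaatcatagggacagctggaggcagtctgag
Slc7a11: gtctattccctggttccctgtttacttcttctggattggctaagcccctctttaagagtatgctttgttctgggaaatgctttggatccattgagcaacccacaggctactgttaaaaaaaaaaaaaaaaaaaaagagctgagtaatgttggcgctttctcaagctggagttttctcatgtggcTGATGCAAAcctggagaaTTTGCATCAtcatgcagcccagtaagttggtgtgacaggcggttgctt
Ddit3: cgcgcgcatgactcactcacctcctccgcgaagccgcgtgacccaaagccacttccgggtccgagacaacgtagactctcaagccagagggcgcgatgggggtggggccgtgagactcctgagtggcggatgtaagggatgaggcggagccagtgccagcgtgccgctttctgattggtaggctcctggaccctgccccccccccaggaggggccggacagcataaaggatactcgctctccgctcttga
Trib3: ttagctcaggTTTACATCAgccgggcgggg

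The search covered both strands of windows from 250 bases before to 50 bases after each annotated start. All 10 genes had a window in the table, and Atf5 and Psat1 had 2 each, which gave 12 windows. The core TGATGNAAN was found for 4 of the 10 genes, against 4.50% of the 27025 genes in the table (3.95% of 32851 windows). In Asns the match TGATGAAAC spans positions -23 to -15 from the start, on the strand of the gene. In Chac1 it reads TGATGCAAC on the opposite strand, at -194 to -186. Slc7a11 holds 2 matches that face each other, both reading TGATGCAAA, at -66 to -58 on the strand of the gene and at -48 to -40 on the other. In Trib3 the match TGATGTAAA lies on the opposite strand at 14 to 22 after the start. No letters of this core were found in the windows of Ddit3, Atf4, Atf5, Sesn2, Psat1 and Phgdh, which says only that they are absent from these 300-base windows.

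Other motifs were searched in the same way. The cAMP response element TGACGTCA was found in 0 of the 12 windows (1.79% of all windows), and the ER stress element, at which ATF6 binds with NF-Y, also in 0 (0.119% of all windows). The antioxidant response element TGACNNNGC, the site of NRF2, was found in the windows of Asns, Sesn2 and Phgdh and in 12.4% of all windows. In Asns it lies at -172 to -164 and does not overlap the C/EBP-ATF match. Matches to short letter patterns are a description and no evidence of binding in these livers. Of the genes with a C/EBP-ATF match, Asns, Chac1 and Trib3 had higher values in the Yap+/- pool, while Slc7a11 read low on both arrays, as given below. Of the genes without a match, Ddit3 and Atf5 were also higher, by log2 differences of 0.78 and 0.15. Atf4, Sesn2 and Phgdh, also without a match, differed by -0.05, -0.07 and -0.04, and Psat1 was too dim to compare.

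**Figure D1:**
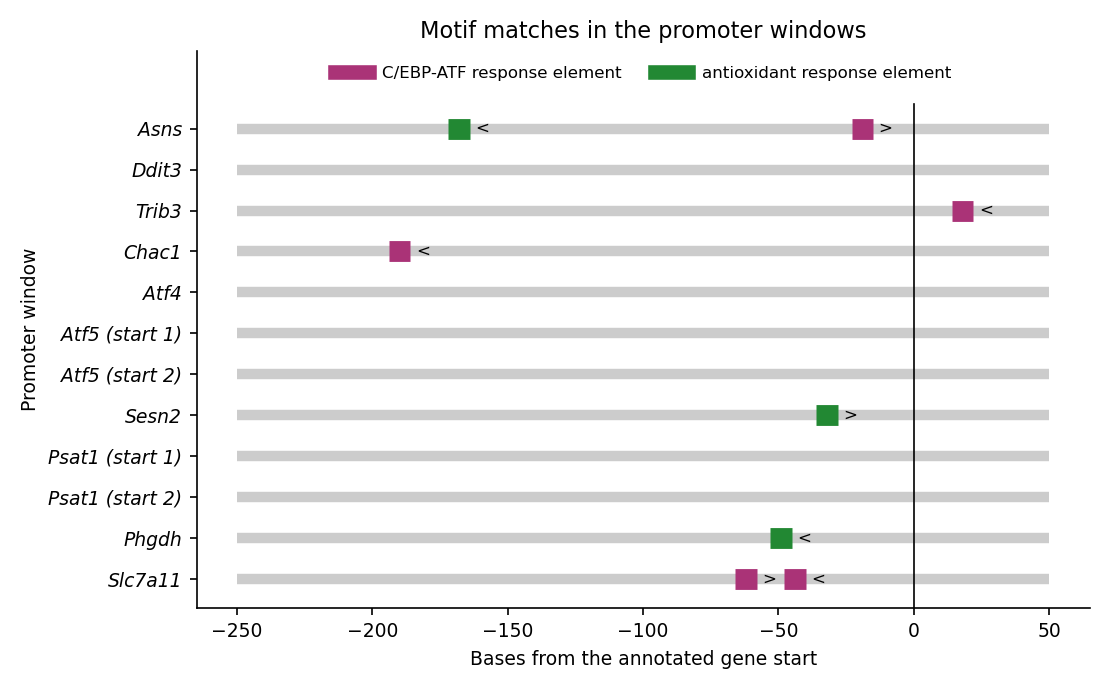
Positions of C/EBP-ATF (purple) and antioxidant (green) response element matches in the 12 promoter windows, as bases from the annotated gene start, with > for a match on the strand of the gene and < for the opposite strand. Asns, Trib3, Chac1 and Slc7a11 hold C/EBP-ATF matches, with 2 in Slc7a11.

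Asns, Ddit3 and Chac1 were the members that differed most between the pools, and all 3 were higher in Yap+/- liver, by 2.11-fold, 1.72-fold and 1.53-fold. Trib3 and Atf5 were higher by smaller amounts, 1.22-fold and 1.11-fold. Atf4 itself, Sesn2 and Phgdh each lay within 1.05-fold of the wild type value, and Psat1 and Slc7a11 were too dim on this array to compare. A gene was taken as measured where its 2 values averaged 6 or more on the log2 scale, and 8 of the 10 members passed, all but Psat1 and Slc7a11. Of these 8, 3 were at least 1.5-fold higher in Yap+/- and 0 at least 1.5-fold lower, where 0.699% of all 9299 measured genes were that much higher and 0.645% that much lower. At the 2-fold threshold 1 member, Asns, was higher and 0 were lower, where 0.0968% of measured genes were higher and 0.226% lower. The median log2 difference of the 8 members was 0.22, and that of all measured genes was 0.00. Because the members were chosen with these differences known, nothing is read from these shares.

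**Figure D2:**
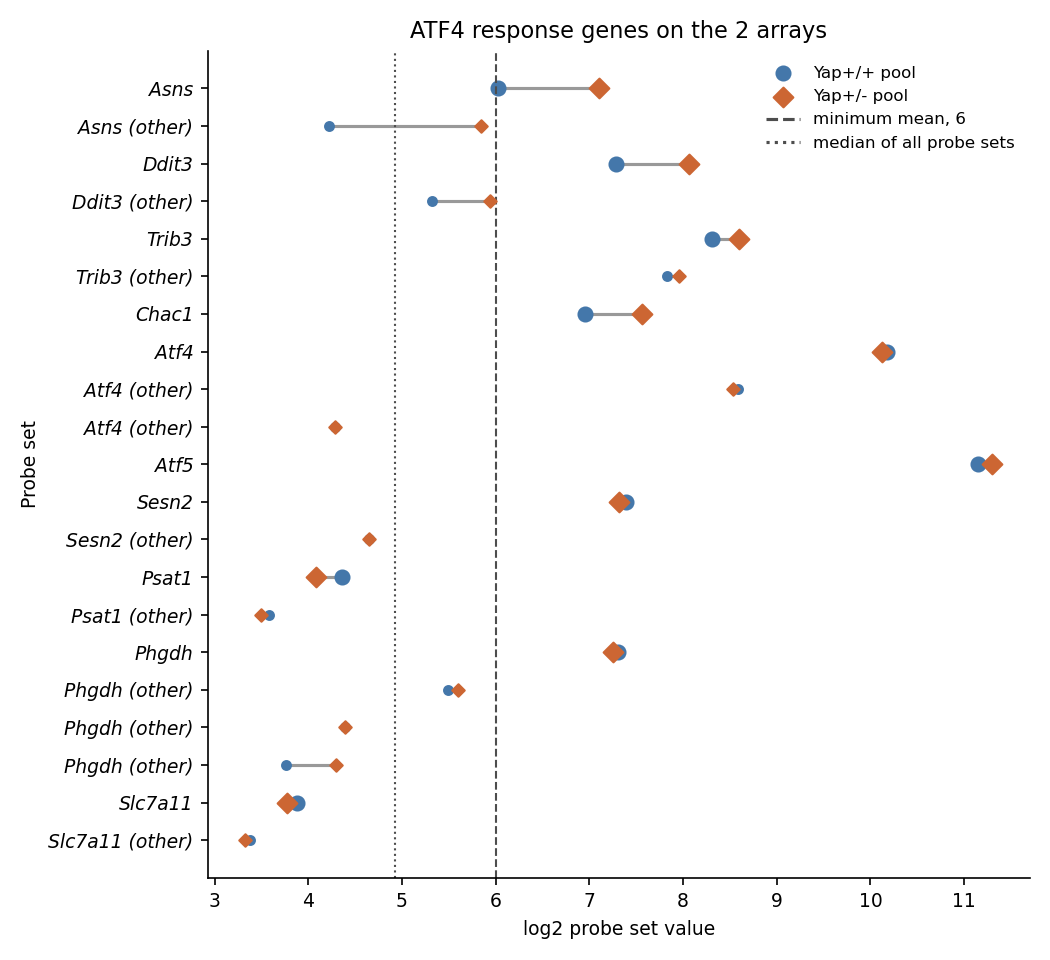
The log2 value of each of the 21 probe sets in the Yap+/+ pool (circles) and the Yap+/- pool (diamonds), with large symbols for the probe set that represents a gene and small ones for its other probe sets. The dashed line marks the minimum mean of 6 and the dotted line the median of all probe sets, 4.92; both probe sets of Asns and of Ddit3 are higher in Yap+/-, and those of Slc7a11 and Psat1 lie left of the dotted line.

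Among the enzymes of amino acid synthesis, Asns was the member with a clear difference in level between the pools. Asparagine synthetase makes asparagine from aspartate with glutamine as the nitrogen donor. Its representing probe set gave 6.02 in the Yap+/+ pool and 7.10 in the Yap+/- pool, a log2 difference of 1.07. Its second probe set gave 4.22 in the Yap+/+ pool and 5.84 in the Yap+/- pool, a difference of 1.63. Both probe sets were higher in the Yap+/- pool, although the wild type value of the second fell below the table's median of 4.92, where signal cannot be told from background, so its nominal 3.09-fold is not exact. The wild type value of the first probe set was also modest, above 64.3% of all probe sets on its array, and the Yap+/- value was above 75.3%.

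Ordered by signed difference, from the most raised in Yap+/- to the most lowered, Asns was 7th of 9299 measured genes. In the other direction, 21 measured genes were at least 2-fold lower in Yap+/-. The measured genes next above it in that order were Serpina7 (thyroxine-binding globulin) and Hes1 (a transcription factor downstream of Notch), at log2 differences of 1.24 and 1.29, and the next below were the heat shock gene Hspa1b and the transcription factor Zbtb16, at 1.04 and 1.03. With only 2 arrays no likeness of pattern beyond this order can be measured. For scale, the 2108 measured genes with a mean within 0.5 of that of Asns had differences with a robust SD of 0.18, and the pairs of brightest probe sets of 3406 genes disagreed about the difference with a robust SD of 0.17. Both figures describe noise and variation across genes within this pair of arrays, not the spread between pools.

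The serine synthesis enzymes were nearly level on their brightest probe set or too dim to compare. Phgdh, phosphoglycerate dehydrogenase, catalyses the committed step from glycolysis to serine. Its representing probe set gave 7.30 in the Yap+/+ pool and 7.26 in the Yap+/- pool, a difference of -0.04. The mean of all its probe sets gave a difference of 0.15, at a level under the minimum mean of 6. The 3 other probe sets of Phgdh were dimmer and were higher in Yap+/- or identical, with 5.50 and 5.59, then 4.39 on both arrays, then 3.77 in Yap+/+ and 4.29 in Yap+/-. A further pair, annotated to Phgdh together with a predicted gene, read 3.37 and 3.46, and 4.62 on both arrays. Because predicted genes share its sequence on this array, the values of Phgdh are uncertain to that extent. Psat1, the aminotransferase of the next step, read 4.36 in Yap+/+ and 4.08 in Yap+/-, and its other probe set 3.58 and 3.50. All 4 of these values lay below the table's median, so no fold is given for Psat1.

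Slc7a11, the cystine and glutamate exchanger xCT, imports cystine for glutathione synthesis and responds both to ATF4 and to NRF2. It read 3.88 in Yap+/+ and 3.78 in Yap+/-, with 3.38 and 3.33 on its other probe set. These values lay above at most 29.4% of probe sets on their array where signal cannot be told from background without detection calls, so the pools could not be compared for this gene.

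Among the transcription factors, Ddit3 was higher in Yap+/- and Atf4 was nearly level. Ddit3 encodes CHOP, a C/EBP family factor that ATF4 induces and that is linked to cell death under lasting stress. Its representing probe set gave 7.28 in the Yap+/+ pool and 8.06 in the Yap+/- pool, a log2 difference of 0.78, which was 25th from the top of measured genes. Its other probe set was dimmer, at 5.32 and 5.94, and gave 0.62 in the same direction. Both probe sets placed Ddit3 higher in the Yap+/- pool by more than 1.5-fold.

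Atf4 encodes the factor that gives the response its name. Its brightest probe set gave 10.17 in the Yap+/+ pool and 10.13 in the Yap+/- pool, a difference of -0.05, and the next read 8.58 and 8.53, a difference of -0.06. The third probe set read 4.28 on both arrays. An identical value on both arrays was seen for 2136 probe sets, 4.74% of the table, among them 1 each of Atf4, Sesn2 and Phgdh. Atf5, a relative of ATF4 that is likewise translated under stress and is abundant in liver, has 1 probe set here, which read 11.15 in Yap+/+ and 11.30 in Yap+/-. Its difference of 0.15 was smaller than the probe set disagreement of 0.17 given above.

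The feedback and effector genes were split. Chac1, an enzyme that degrades glutathione and is a target of ATF4 and CHOP, read 6.95 in Yap+/+ and 7.57 in Yap+/-, a log2 difference of 0.61 on its only probe set and 58th from the top of measured genes. Trib3, a pseudokinase that is induced by ATF4 and CHOP and restrains them, read 8.31 and 8.60, a difference of 0.29, and its other measured probe set 7.83 and 7.96, a difference of 0.14. The probe sets of Trib3 point the same way, and 4.71% of measured genes had a larger positive difference than its brighter one. Sesn2, sestrin 2, which inhibits mTORC1 when leucine is short, read 7.39 in Yap+/+ and 7.32 in Yap+/-, a difference of -0.07, and 4.64 on both arrays on its other probe set. Over all 21 probe sets of the 10 members, 10 were higher in Yap+/-, 8 lower and 3 identical. The lower ones include every probe set of Psat1 and Slc7a11, which were too dim to compare. Of all measured genes, on their brightest probe set, 48.8% were higher and 49.6% lower. No such share was computed over all probe sets, so nothing is read from the count.

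**Figure D3:**
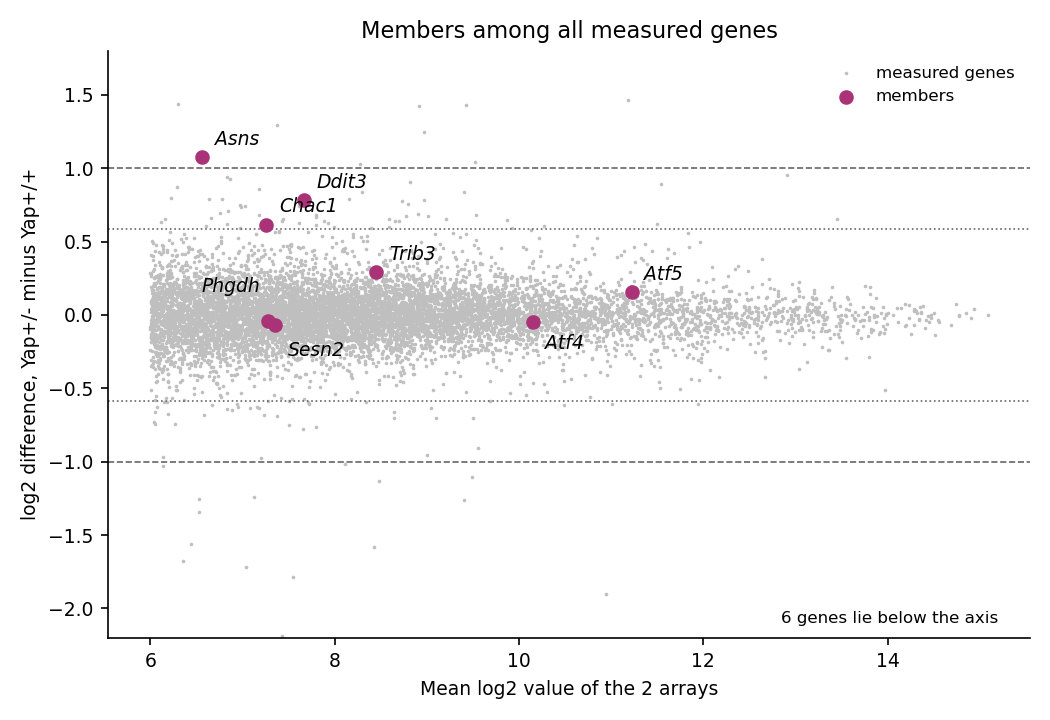
Log2 difference (Yap+/- minus Yap+/+) against the mean log2 value of both arrays for 9299 measured genes (grey) and the 8 measured members (purple), with dotted lines at 1.5-fold and dashed lines at 2-fold; 6 grey genes lie below the lower edge of the plot. Asns lies past the upper 2-fold line, Ddit3 and Chac1 past the 1.5-fold line, and Atf4, Phgdh and Sesn2 close to 0.

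The wider ATF4 pathway and the ATF6 and XBP1 arms of the unfolded protein response were described from lists drawn from general knowledge. The lists were chosen with earlier results of these data known. Of their genes, 74 were measured, 18 of them from the ATF6 and XBP1 list. None of the 74 was at least 1.5-fold higher in Yap+/-, and 1, Ddit4, was at least 1.5-fold lower. Of all measured genes, 0.699% were that much higher and 0.645% that much lower, so nothing is read from these counts. Their median difference was 0.02, with 40 higher and 34 lower, beside 48.8% of all measured genes higher and 49.6% lower by any amount. The ATF6 and XBP1 list held 15 of the 40 higher and 3 of the 34 lower genes. Outside that list more genes were lower than higher, as among all measured genes, and nothing is read from that. The differences of Asns, Ddit3 and Chac1 were larger than that of every measured gene on the pathway lists. Because these members were chosen with their differences known, nothing is read from that order.

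Upstream of ATF4, the eIF2 kinases and the genes that control eIF2 were evenly divided, with 7 of 14 higher, 7 lower and a median of 0.02. Eif2ak3, the kinase PERK of the endoplasmic reticulum, was highest at 7.56 in Yap+/+ and 7.81 in Yap+/-, a difference of 0.25, although its 2 other, dim probe sets were lower, at differences of -0.21 and -0.27. Eif2ak2, the double-stranded RNA kinase PKR, was lowest, at 7.05 and 6.49, a difference of -0.56. Its other probe sets, which averaged under the minimum of 6, gave -0.21 and 0.12.

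Other targets and partners of ATF4 had 6 of 9 measured genes higher, with a median of 0.13. Without the filter 11 of 14 were higher and 3 lower, where the added genes averaged under 6. Herpud1, a component of the degradation machinery of the endoplasmic reticulum, was highest, at 11.56 in Yap+/+ and 12.12 in Yap+/-, a difference of 0.56, and its other probe set gave 0.51. Ddit4, the mTORC1 inhibitor REDD1, was lowest, at 8.02 in Yap+/+ and 7.41 in Yap+/-, or 1.53-fold lower, on its only probe set. The pools therefore differed in opposite directions for Chac1 and Ddit4, by nearly the same fold.

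In both lists of genes next to Asns and Phgdh in metabolism, more measured genes read lower than higher. Of all measured genes, 48.8% were higher and 49.6% lower, so nothing is read from the counts that follow. Of the enzymes of aspartate, asparagine, glutamine and alanine, 3 of 7 read higher and 4 lower, and the median was -0.01. Got1, the cytosolic aspartate aminotransferase, was lowest at 11.75 in Yap+/+ and 11.29 in Yap+/-, a difference of -0.46 on its only probe set. Aspg, an asparaginase, was highest at 10.56 and 10.59. Of the enzymes of serine, glycine, one-carbon and proline synthesis, 1 of 5 measured was higher, with a median of -0.10. Without the filter 3 of 9 were higher and 5 lower, where the added genes averaged under 6. Shmt1, the cytosolic serine hydroxymethyltransferase, was lowest at a difference of -0.24 and lower on all 4 of its probe sets. Its mitochondrial counterpart Shmt2 was highest at 0.01 on its brightest probe set. The next brightest probe set of Shmt2 gave -0.23, and the others gave 0.06 and -0.08.

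Amino acid transporters of the response had 3 of 5 measured genes higher and a median of 0.14. Slc38a2, the sodium-coupled transporter SNAT2, was highest at 10.84 in Yap+/+ and 11.01 in Yap+/-, a difference of 0.17, while its next brightest probe set gave 0.01, and Slc1a4, a neutral amino acid exchanger, was lowest at -0.08. Cytosolic aminoacyl-tRNA synthetases, which load amino acids on tRNA, had 4 of 11 higher and a median of -0.04, from -0.23 to 0.15. Genes of glutathione synthesis had 1 of 5 higher and a median of -0.06. Gclm, the modifier subunit of the rate-limiting ligase, was lowest at -0.21, and Chac2, a relative of Chac1, was highest at 0.02.

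The ATF6 and XBP1 list covers the other arms of the unfolded protein response and holds chaperones and other genes. Of its 18 genes, 15 were higher, and the median was 0.14. Of all measured genes, 48.8% were higher by any amount. Syvn1, a ubiquitin ligase of the degradation machinery of the endoplasmic reticulum, was highest at 9.11 in Yap+/+ and 9.50 in Yap+/-, a difference of 0.39, with 0.09 on its other probe set. Pdia3, a disulphide isomerase, was lowest at -0.12. None of these 18 genes reached 1.5-fold in either direction, beside 0.699% of all measured genes higher and 0.645% lower by that much.

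**Figure D4:**
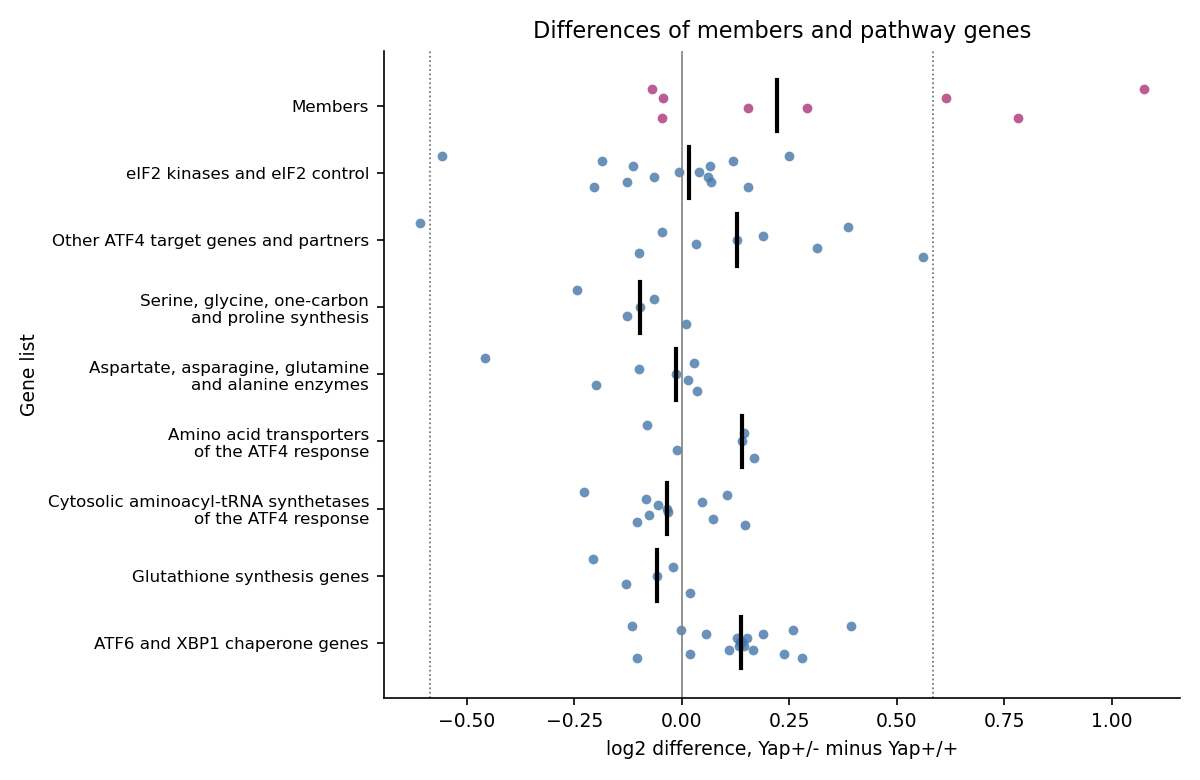
Log2 differences (Yap+/- minus Yap+/+) of the measured members (purple) and of measured genes of 8 pathway lists (blue), 1 point per gene with vertical scatter for visibility, black bars at each median and dotted lines at 1.5-fold. Asns, Ddit3 and Chac1 lie right of the upper dotted line, no pathway gene does, and Ddit4 alone lies left of the lower one.

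Facts of the pair of arrays run beside these values. The brighter probe set of Yap1 gave 9.40 in the Yap+/+ pool and 9.24 in the Yap+/- pool, and the other 6.01 and 5.77. The excess of 3-prime over 5-prime signal of control transcripts, a mark of RNA and labelling quality, was larger in Yap+/- for the 3 control transcripts examined, by a log2 value of 0.20 (beta-actin), 0.22 (Gapdh) and 0.21 (pyruvate carboxylase). Of the hepatocyte markers, all 7 named on the array were measured, and their values summed on the linear scale were 1.01 times as high in Yap+/- as in Yap+/+. The Kupffer cell and macrophage markers were higher in 8 of 8 genes, and their sum went from 7644 to 9723. Marco had the largest difference of these, 0.62, while its other, dimmer probe set gave -0.02. Sinusoidal endothelial markers were higher in 5 of 6 measured genes, with sums of 4213 and 4976. Sums were 117 and 243 for 4 neutrophil genes (S100a9 and S100a8 higher, Mpo and Elane with means below the table's median), 243 and 306 for 5 lymphocyte genes and 230 and 248 for 3 erythroid genes. Only S100a9, Ccl5 and Alas2 of these lists averaged 6 or more. Ccl5 differed by 0.62 and the other lymphocyte genes by 0.08 to 0.22. The 5 biliary genes, none of which averaged 6 or more, summed to 231 and 156. Krt19 differed by -1.90 and the others by -0.15 to 0.26. The 7 stellate and smooth muscle genes summed to 4323 and 4159, but the smooth muscle genes Acta2 and Tagln differed by -1.13 and -0.75, while Col3a1 was at 0.06. The 4 pancreas genes summed to 871 and 802, with Reg1 at -1.77 and Ctrb1 at -1.28, both with means under 6, and Cela1 at 0.04. The part of these differences in the higher values of Asns, Ddit3 and Chac1 was not tested. In bulk liver, more cells of a type and more RNA per cell cannot be told apart.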

How the data were processed

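Each genotype was represented by 1 array of RNA from 5 pooled livers. The authors deposited 1 log2 value per probe set and array, made with RMA (background correction, quantile normalisation and summary of probes) and Partek 6.5, per the submitters' processing notes, which give no settings. They ran from 2.49 to 15.15 over 45101 probe sets. Detection calls and scanner files were not used here, and the number of arrays limits the precision.

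Of the probe sets, 34945 carried exactly 1 symbol in the platform's annotation. List genes missing under their current symbol were matched through RefSeq synonyms, and 87 of 95 pathway genes were found. The difference was the Yap+/- minus the Yap+/+ value, with no test. Members and lists were chosen with earlier results of these data known. Besides the members, the genes named are Yap1, the measured genes past 1.5-fold or otherwise furthest in each direction of each pathway list, the neighbours of Asns in order of difference and up to 2 genes per marker list, with further neutrophil, stellate and pancreas genes named after their values were seen. Counting was tested on simulated data. Alternatives were other filters, probe set rules, scalings and thresholds. Software was pandas 2.3.3 and numpy 2.4.6 under Python 3.11.15, with statsmodels 0.14.6 for lowess and matplotlib 3.10.9 for plots.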

Additional observations from a re-analysis of the deposited data

How the results depend on the processing

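With 1 pool per genotype no value has a replicate, and signal over background limits Asns, whose wild type value of 6.02 lay close to the minimum of 6. No paired analysis was possible because each genotype has 1 sample and no result comes from a test. Movement was judged against the disagreement between probe sets of a gene, 0.17. The difference of Asns was 1.35 as the mean of its probe sets and 0.64 with 64 added on the linear scale before log2. Neither change could turn its sign. Over the alternatives run it ranged from 0.64 to 1.35. Under that addition Ddit3 was 0.59 and Chac1 0.43, so Chac1 fell under 1.5-fold. The number of members at least 1.5-fold higher was 2 in place of 3 with 64 added, with a minimum mean of 7 and with the mean of all probe sets, the last 2 of which drop Asns. Phgdh turned from -0.04 to 0.15 with the mean of all probe sets, which leaves Phgdh under the minimum too. The largest difference among its probe sets, 0.53, came from the dimmest. The number of members at least 2-fold higher was 0 in place of 1 with a minimum mean of 7, with the mean of all probe sets (both of which leave Asns under the minimum), with 64 added and at a 3-fold threshold. The members' median of 0.22 was 0.61 with probe sets of plain suffix only, which leaves 5 measured members, 0.06 without the filter and 0.15 without Asns. The 1 pathway gene at least 1.5-fold lower became 0 with 64 added. The pooled pathway median was -0.02 with the mean of all probe sets and with plain probe sets, so its sign is not settled. A minimum of 7 gives no value for Asns, and probe sets of plain suffix give none for Trib3, Atf5, Psat1 and Phgdh. In all, 49 recomputed values of the main results stayed within the limit (1.5 times for counts), and 8 went past it. Some could not move, since median centring subtracted 0.00 and filters leave the difference of a gene as it is. Normalising by quantiles again repeats a step of RMA. No difference of at least 1.5-fold changed sign, but adding 64 cannot change a sign. Averaging probe sets that point the same way cannot do so either. The tally is therefore no measure of stability. The shorter motif TGATGNAA gave the same 4 genes as a count.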
